A study of Danio rerio with 4 samples.

Results

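A set of 10 zebrafish gene symbols of the red cell lineage other than the haemoglobins was followed: the transcription factor genes gata1a, klf1, klf17 and blf, the enzyme genes alas2, cahz and nt5c2l1, and the membrane genes slc4a1a, epb41b and sptb. A row of the deposited tables belonged to the set when its identifier carried one of these symbols or the same name without the paralog letter. All 10 symbols had a row, and they gave 12 of the 28346 rows, because SLC4A1 names 2 identifiers and EPB41 stands beside epb41b. Of the 12 rows 11 had enough counts to be tested. The remaining one, SLC4A1 (ENSDARG00000024560), had 1 count in vein library 2 and 0 in the other libraries.

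Cells came from the caudal hematopoietic tissue, a vascular niche of the tail where young blood stem cells settle and expand, of wild-type, untreated Tg(kdrl:GFP;lyve1b:DsRed) larvae at 5 days post fertilisation. Vein endothelium was sorted as cells positive for both reporters (2 libraries), and non-vein endothelium as cells with GFP alone (2 libraries). The transgenes place GFP under the promoter of the endothelial receptor gene kdrl and DsRed under that of lyve1b, a gene of veins and lymphatic vessels, and both groups carry them. The labels do not say how many larvae were pooled or whether the libraries of a group came from separate pools, so that the p-values rest on a spread between libraries that may be technical only.

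Red cell precursors mature under a small group of transcription factors led by GATA1 and KLF1, which switch on the genes for globins, haem synthesis and the membrane skeleton. Mature fish erythrocytes keep their nucleus, and precursor and mature cells differ in the balance between regulatory genes and the genes of the finished cell. The question put to the data was whether the regulators, the enzymes and the membrane genes stood at different levels in the sorted vein cells and the sorted non-vein cells.

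The libraries held 15672159 and 16409447 estimated counts in vein and 18047152 and 18862102 in non-vein. As a check of the labels, lyve1b stood at 1953 and 1636 CPM (counts relative to the library total, scaled by TMM) in vein libraries and at 53.7 and 217 CPM in non-vein libraries, and kdrl, whose reporter both groups carry, at 10500 and 7933 CPM in vein and 1998 and 2956 CPM in non-vein. Of 16 endothelial markers listed for the check, 14 rows were found and tested, and 10 of them passed the test as higher and 0 as lower in vein. By range 12 rows lay above in vein and 2, FLI1 and plvapa, lay below. The 14 rows took 2.01% and 1.75% of the counts in vein libraries and 0.463% and 0.689% in non-vein libraries. The 16 haemoglobin rows took 0.880% and 1.66% of the counts in vein libraries and 0.550% and 0.810% in non-vein libraries, so both sorted populations carried red cell RNA. In bulk libraries, fewer cells of a type and less RNA per cell cannot be told apart.

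Among the 11 tested rows blf was the only one that passed the test, and it fell in vein. The 3 enzyme genes and 2 of the 4 tested membrane rows were higher in both vein libraries than in either non-vein library, and none of these 5 passed the test. Over all 15953 genes tested, 11.4% passed at a Benjamini-Hochberg adjusted p under 0.05 in edgeR's quasi-likelihood test, 4.11% as higher and 7.33% as lower in vein. An unadjusted p under 0.05 was found for 30.1% of all genes and for blf and cahz among the 11 rows. The ranges of the groups lay apart for 62.1% of the genes tested, with vein above for 29.0% and vein below for 33.1%, and for 7 of the 11 rows, with vein above for 5 and below for 2. The totals called and apart in the set are thus near those over all genes. The split of ranges differs, with more rows above than below in vein where all genes had more below. The median log2 fold was 1.40 for the set, with 8 rows positive and 3 negative, and 0.00757 for all genes tested. This difference was not tested, and ranges that lie apart are given as a description only.

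**Figure D1:**
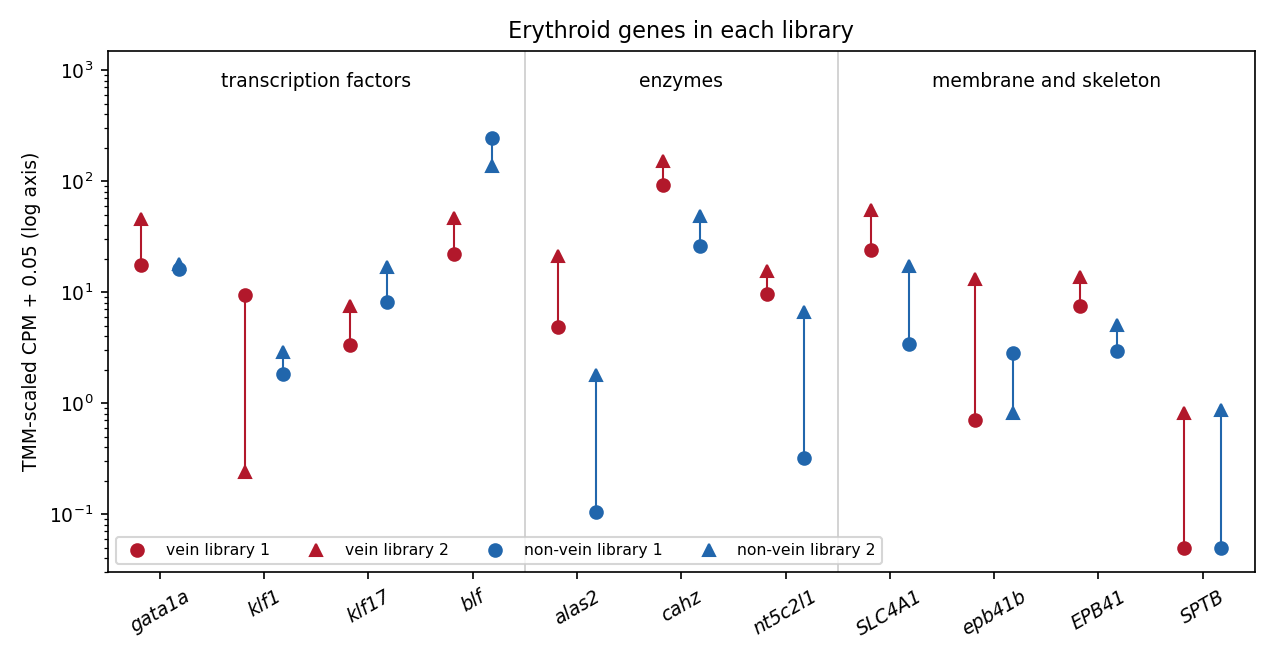
Level of each of the 11 tested rows in every library, as TMM-scaled CPM plus 0.05 on a log axis. Vein libraries are red and stand left of the non-vein libraries in blue, circles are library 1 and triangles library 2, and lines join the libraries of a group. blf is the row in which both vein libraries lie far below both non-vein libraries, and cahz, alas2 and nt5c2l1 lie above in vein.

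blf, named bloody fingers, encodes a zinc finger transcription factor that zebrafish embryos express in blood. It stood at 22.3 and 46.6 CPM in vein libraries and at 246 and 137 CPM in non-vein libraries. Both vein libraries were low, and the groups did not overlap. blf fell in vein, where the non-vein level was 5.55-fold higher (log2 -2.47, SE 0.48, 95% interval -3.67 to -1.27; edgeR, adjusted p = 0.0331, n = 2 and 2). The fold kept its direction without any one library, but the adjusted p was 0.0585 without vein library 1 and 0.0594 without non-vein library 1, and the log2 fold was -3.10 without vein library 2.

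Most markers of blood progenitors and leukocytes also fell in vein. Of the 12 rows of this marker list 9 passed as lower, among them gata2b, IKZF1 and rac2, and 0 as higher, and all 12 lay below in vein (median log2 -4.12). RUNX1 and MYB were among those that did not pass (edgeR, adjusted p = 0.0661 and 0.141). Over all genes tested, 7.33% passed as lower and 33.1% lay below in vein. The 12 rows took 0.0107% and 0.0265% of the counts in vein libraries and 0.400% and 0.305% in non-vein libraries. CXCR4 (ENSDARG00000041959) was the largest part in non-vein, with 25343 of 72231 and 18035 of 57620 counts. LCP1 came next there, with 18254 and 12541. gfi1aa, another row of the list, was picked with its values known. It had 0 counts in both vein libraries and 698 over the non-vein libraries. The part of these cells in the lower blf level was not tested.

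klf17, formerly biklf, is a Krüppel-like factor gene that acts upstream of gata1a in zebrafish embryonic blood. It had 3.27 and 7.46 CPM in vein libraries and 8.04 and 16.9 CPM in non-vein libraries. The vein libraries lay below the non-vein libraries, by a narrow margin between vein library 2 and non-vein library 1. The difference did not pass the test (log2 -1.21, SE 0.77, 95% interval -3.14 to 0.71; edgeR, adjusted p = 0.371), and the log2 fold became -0.59 when non-vein library 2 was left out and -1.93 when vein library 2 was.

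gata1a encodes the master factor of red cell development, which is also active in thrombocytes. Its level was 17.4 and 45.5 CPM in vein libraries and 16.1 and 18.04 CPM in non-vein libraries. Only vein library 2 stood out, and vein library 1 lay between the non-vein libraries. The log2 difference of 0.88 (SE 0.55, 95% interval -0.49 to 2.25) did not pass (adjusted p = 0.361 by edgeR), and without vein library 2 it was 0.03.

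klf1, the erythroid Krüppel-like factor gene that turns on adult globin genes in mammals, had the least settled values of the regulators. It had 144 and 3 counts in the vein libraries, or 9.40 and 0.191 CPM, and 33 and 56 counts in the non-vein libraries, or 1.79 and 2.85 CPM. One vein library was above and the other below both non-vein libraries, so that the fold (log2 1.05, SE 1.66; edgeR, adjusted p = 0.748) turned to -3.56 without vein library 1.

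cahz encodes the carbonic anhydrase of zebrafish red cells, which converts carbon dioxide and bicarbonate into each other. It stood at 91.6 and 152 CPM in vein libraries and at 25.8 and 48.3 CPM in non-vein libraries. Every vein value exceeded every non-vein value, and the vein mean was 122 ± 42.7 CPM against 37.0 ± 15.9 CPM in non-vein (SD, n = 2 each). The 3.29-fold difference missed the threshold (log2 1.72, SE 0.43, 95% interval 0.65 to 2.78; edgeR, adjusted p = 0.0598). It passed without non-vein library 2 (log2 2.23, adjusted p = 0.0280), and in the other settings without a library its adjusted p was 0.0504 to 0.133.

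alas2 encodes the erythroid form of aminolevulinate synthase, the first and rate-limiting enzyme of haem synthesis. It had 73 and 330 counts in vein libraries and 1 and 34 counts in non-vein libraries, which gave 4.77 and 21.0 CPM in vein and 0.0543 and 1.73 CPM in non-vein. The groups did not overlap, but the libraries within each group differed by 4.41-fold in vein and 31.8-fold in non-vein. The log2 fold of 3.84 (SE 1.6, 95% interval -0.13 to 7.81) did not pass (adjusted p = 0.178 by edgeR), and when a library was left out it lay between 2.40 and 7.70.

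nt5c2l1 belongs to the cytosolic nucleotidases, enzymes that remove the phosphate from purine nucleotides. It had 146 and 244 counts in vein libraries (9.53 and 15.6 CPM) and 5 and 130 counts in non-vein libraries (0.272 and 6.61 CPM). Non-vein library 1 was the low one, and non-vein library 2 lay nearer to vein library 1 than to it. The log2 fold was 1.86 (SE 1.36, 95% interval -1.51 to 5.24; adjusted p = 0.434 by edgeR), or 0.93 when non-vein library 1 was left out and 5.49 (adjusted p = 0.0546) when non-vein library 2 was.

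**Figure D2:**
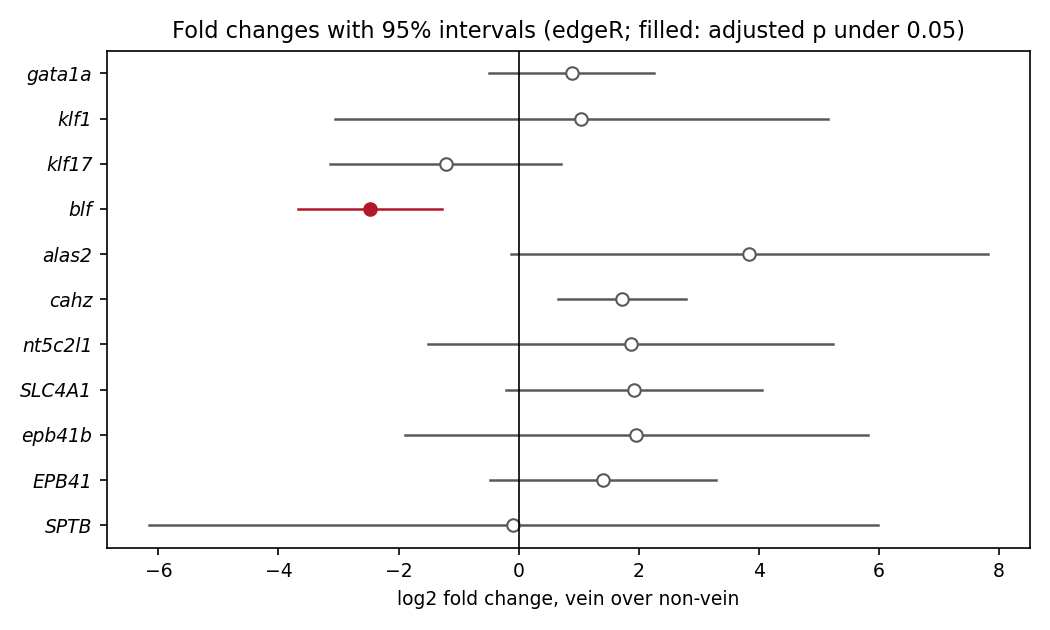
Log2 fold change of vein over non-vein for the 11 tested rows, in order of role, with pointwise 95% intervals from edgeR's quasi-likelihood fit. Filled red marks an adjusted p under 0.05. blf is the row at -2.47 that passed, the interval of cahz (0.65 to 2.78) also lies above 0, and the other 9 intervals include 0.

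Of the membrane rows, SLC4A1 (ENSDARG00000012881) carries the name of the erythrocyte anion exchanger, which swaps bicarbonate for chloride and anchors the membrane skeleton. It had 24.0 and 54.6 CPM in vein libraries and 3.37 and 17.3 CPM in non-vein libraries. Both vein libraries were above both non-vein libraries, with non-vein library 1 lowest. The log2 fold of 1.92 (SE 0.86, 95% interval -0.21 to 4.05) did not pass (edgeR, adjusted p = 0.205), although it did without non-vein library 2 (log2 3.54, adjusted p = 0.0390). Leaving out non-vein library 1 gave a smaller log2 fold (1.19, adjusted p = 0.435), as did leaving out vein library 2 (1.21, adjusted p = 0.431).

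The protein made from EPB41 genes ties spectrin and actin to the membrane. The row named EPB41 (ENSDARG00000099283), without a paralog letter, had 7.51 and 13.6 CPM in vein libraries and 2.93 and 5.03 CPM in non-vein libraries, with the groups apart (log2 1.40, SE 0.76, 95% interval -0.48 to 3.29; edgeR, adjusted p = 0.291). epb41b behaved differently between libraries: it had 10 and 206 counts in vein and 51 and 15 in non-vein, so that vein library 2 was highest and vein library 1 lowest. Its log2 fold of 1.96 (SE 1.55; edgeR, adjusted p = 0.475) became -1.43 without vein library 2. Estimated counts of close paralogs can share reads, and the split between epb41b and EPB41 is uncertain.

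SPTB, for beta-spectrin, the main strand of the red cell membrane skeleton, was close to undetected. It had 0 and 12 counts in vein libraries and 0 and 16 in non-vein libraries (log2 -0.09, SE 2.44; edgeR, adjusted p = 0.988). A count of 0 allows up to 0.191 CPM in vein library 1 and 0.166 CPM in non-vein library 1, before TMM scaling. The groups overlapped, and the libraries within each group differed more than the groups did.

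Per length, the order of the genes differed between the groups. FPKM values, which are scaled to transcript length and library total, put cahz first in vein (63.7 ± 21.4, SD, n = 2), then gata1a (18.3 ± 11.3) and blf (17.3 ± 8.35), whose ranges overlapped. In non-vein blf led with 102 ± 40.3 FPKM, then came cahz with 20.8 ± 9.24, gata1a with 10.6 ± 1.01 and klf17 with 7.94 ± 4.09 (SD, n = 2). The range of blf lay above that of cahz, and that of cahz above that of gata1a, while gata1a and klf17 overlapped. The non-vein mean of blf exceeded 92.3% of the tested genes and its vein mean 77.6%, and that of cahz exceeded 90.9% in vein and 78.0% in non-vein.

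In vein, SLC4A1 (ENSDARG00000012881) followed with 10.9 ± 5.73 FPKM, EPB41 with 5.99 ± 3.08, nt5c2l1 with 5.37 ± 1.75, alas2 with 4.87 ± 4.29, klf17 with 3.18 ± 1.71, klf1 with 1.86 ± 2.52 and epb41b with 1.28 ± 1.63 (SD, n = 2), and each overlapped its neighbour in this order. In non-vein, SLC4A1 had 3.26 ± 3.18, EPB41 2.59 ± 1.0, nt5c2l1 1.59 ± 2.08, klf1 0.950 ± 0.320, alas2 0.365 ± 0.486 and epb41b 0.351 ± 0.279 FPKM (SD, n = 2). Here klf1 lay above alas2 in both libraries, whereas in vein their ranges overlapped. SPTB was at 0 and 0.0990 FPKM in vein libraries and at 0 and 0.115 FPKM in non-vein libraries.

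Set against gata1a in the same library, blf FPKM was 1.1 and 0.882 times that of gata1a in vein and 13.1 and 6.48 times in non-vein. klf17 was 0.191 and 0.167 times gata1a in vein and 0.508 and 0.954 times in non-vein. The ratio ran the other way for cahz, with 4.73 and 3.0 times gata1a in vein and 1.44 and 2.41 in non-vein, and for alas2, with 0.178 and 0.301 in vein and 0.00222 and 0.0624 in non-vein. For each of these 4 genes the ratio to gata1a lay apart between the groups. The ratio was taken for these 4 genes only and not for the other rows of the set. The 4 genes also lay apart in CPM, as did 62.1% of all genes tested. Groups of 2 and 2 cannot give a two-sided exact permutation p below 0.333, so no test is attached to these ratios.

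Haemoglobin was the most abundant of the red cell genes examined. Of its 16 rows 10 were tested, 0 passed the test with edgeR (5 had an unadjusted p under 0.05, 2 passed without vein library 1, 3 without non-vein library 2, and DESeq2 and the fit without a filter called 4 each), 6 lay above and 0 below in vein, and the median log2 fold was 1.15, against 0.00757 for all genes tested. Ranges lay above in vein for 29.0% of all genes tested and below for 33.1%. hbae1.2 had 53598 and 104447 counts in vein libraries and 43233 and 61322 in non-vein libraries. hbae1.1, another abundant alpha chain gene, was chosen after its values were seen and had 10340 and 17751 counts in vein and 20660 and 15581 in non-vein, with overlapping groups (log2 -0.08; edgeR, adjusted p = 0.905). The rows named HBE1, a name that stands here for several beta chain rows, can share reads among paralogs.

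The members were also counted per 1000 haemoglobin counts of the same library, as a description with no test. The 4 regulator genes had 5.81 and 5.74 counts per 1000 haemoglobin counts in vein libraries and 50.3 and 22.4 in non-vein libraries. The 3 enzyme genes had 11.7 and 10.8 in vein and 4.84 and 7.29 in non-vein, and the 5 membrane rows 3.57 and 4.72 in vein and 1.68 and 3.08 in non-vein. The regulator sum was mostly blf in non-vein, with 2.47 and 2.68 in vein and 45.5 and 17.6 in non-vein. The enzyme sum was mostly cahz in every library, with 10.2 and 8.74 in vein and 4.78 and 6.22 in non-vein. SLC4A1 (ENSDARG00000012881) was the largest part of the membrane sum, with 2.67 and 3.14 in vein and 0.624 and 2.23 in non-vein.

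gata1a had 1.94 and 2.62 counts per 1000 haemoglobin counts in vein and 2.99 and 2.32 in non-vein, and the groups overlapped. klf1 overlapped too, with 1.04 and 0.0110 in vein and 0.332 and 0.366 in non-vein. EPB41 had 0.834 and 0.781 in vein and 0.544 and 0.648 in non-vein, a smaller gap than in CPM. cahz had 10.2 and 8.74 in vein and 4.78 and 6.22 in non-vein, so that it lay above in vein also relative to haemoglobin. klf17 had 0.362 and 0.429 in vein and 1.49 and 2.17 in non-vein.

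**Figure D3:**
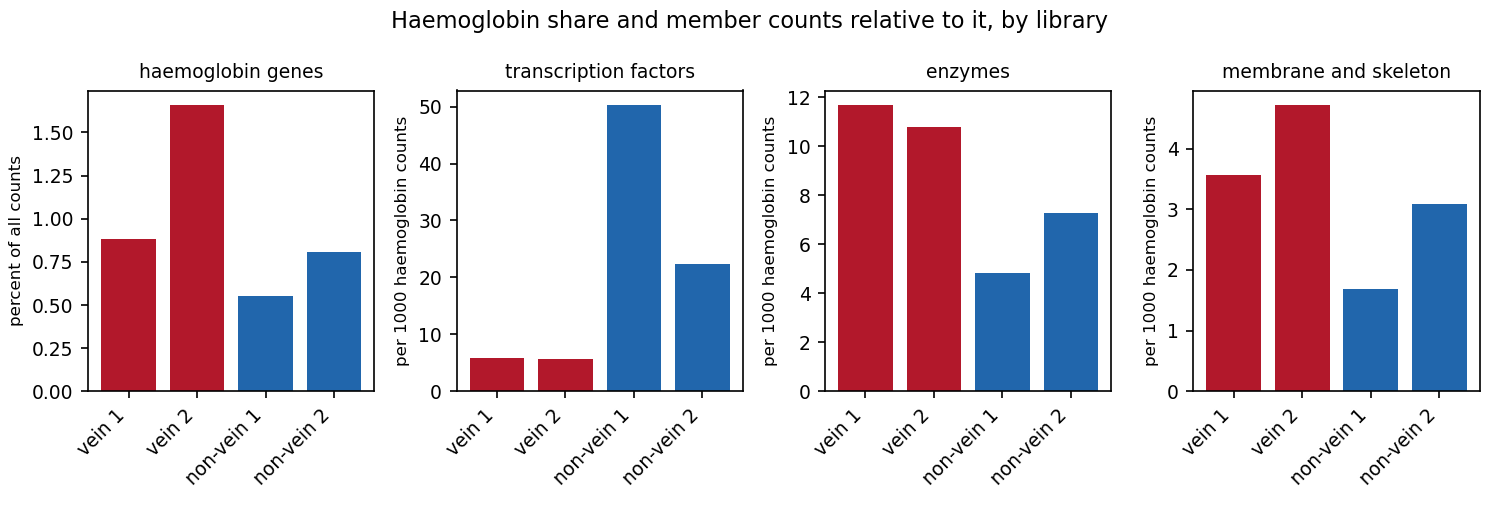
Share of all counts taken by the 16 haemoglobin rows in percent (first panel), and summed counts of the regulator, enzyme and membrane rows per 1000 haemoglobin counts (other panels), 1 bar per library, with vein in red left of non-vein in blue. Relative to haemoglobin the regulators were at 5.81 and 5.74 in vein and 50.3 and 22.4 in non-vein, mostly blf in non-vein. The enzymes, mostly cahz, were at 11.7 and 10.8 in vein and 4.84 and 7.29 in non-vein.

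Most rows of the set were higher in library 2 than in library 1 of the same group. Of the 11 tested rows 10 were higher in library 2 than in library 1 in vein and 9 in non-vein, with median log2 differences of 1.08 and 0.89. Over all genes tested, 50.4% in vein and 52.3% in non-vein were higher in library 2. Of the 10 tested haemoglobin rows 10 were higher in library 2 in vein and 9 in non-vein (median log2 0.96 and 1.04). The exceptions among the 11 rows were klf1 in vein and epb41b and blf in non-vein. blf thus ran against haemoglobin between the non-vein libraries and with it between the vein libraries. The labels name no batch that separates the libraries.

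Without blf the set took 0.0164% and 0.0310% of the counts in vein libraries and 0.00624% and 0.0123% in non-vein libraries. With blf the shares were 0.0186% and 0.0354% in vein and 0.0313% and 0.0266% in non-vein, and the groups overlapped. Wilson 95% intervals for vein library 1 were 0.0158% to 0.0171% without blf and 0.0179% to 0.0193% with it, and they cover counting error only.

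Genes that surround the set in red cell biology were read from the same fit. For comparison with each list below, 29.0% of all genes tested lay above and 33.1% below in vein. Of all genes tested 4.11% passed as higher and 7.33% as lower in edgeR. Of 14 tested rows of other regulators 7 lay below and 4 above in vein, and 1 passed as lower and 0 as higher (median log2 -0.63), while 2 were called without vein library 2. The row that passed was NFE2, a basic leucine zipper factor of red cells and thrombocytes, which fell in vein to 4.51 and 3.12 CPM, against 112 and 94.2 CPM in non-vein libraries (log2 -4.75, SE 0.37; edgeR, adjusted p = 0.0104). Both vein libraries were far below the non-vein libraries, and the call held without any one library (adjusted p 0.00303 to 0.0168). Among thrombocyte markers 3 of 8 tested rows were lower and 1 higher (median log2 -2.10, summed share 0.0131% and 0.0205% in vein and 0.0265% and 0.0238% in non-vein), and 2 in all were called without non-vein library 1. The higher row, THBS1 (ENSDARG00000010785), had 1321 and 2450 of the list's 2058 and 3361 counts in vein. In non-vein it had 389 and 631 of 4775 and 4491 (log2 2.19; edgeR, adjusted p = 0.0307). itga2b, another of these markers, had 0 counts in both vein libraries, against 317 and 91 in non-vein. gp9, another of them, had 61 and 34 counts in vein and 99 and 80 in non-vein (edgeR, adjusted p = 0.736). The part of thrombocytes in the lower NFE2 level was not tested.

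Of 9 tested rows of the other enzymes of haem synthesis 0 passed (edgeR, 1 with an unadjusted p under 0.05 and 1 called as higher without vein library 1; DESeq2 called 1 as lower), 3 lay below and 0 above in vein, and the median log2 fold was 0.0453. ALAS1, the form of the first enzyme used outside red cells, had 110 and 159 CPM in vein libraries and 226 and 289 CPM in non-vein libraries (log2 -0.94, SE 0.28; edgeR, adjusted p = 0.0865). Its vein values lay below its non-vein values. UROD, a later enzyme of the pathway, had 39.1 and 56.0 CPM in vein and 52.8 and 30.7 CPM in non-vein, with overlapping groups (log2 0.19; edgeR, adjusted p = 0.818). CPOX, also a later enzyme, was chosen after its values were seen and had 42 and 909 counts in vein and 262 and 220 in non-vein (log2 1.26; edgeR, adjusted p = 0.569).

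Among 13 tested rows of iron and haem transport 2 were higher and 0 lower in vein (median log2 0.25). By range 2 lay above and 3 below in vein, and DESeq2 called 2 as higher and 2 as lower. Those below were TMEM14C, tfr1b and FLVCR1 (log2 -0.29, -1.79 and -3.00; edgeR, adjusted p = 0.451, 0.128 and 0.0993). SLC40A1, ferroportin, the exporter of iron from cells, rose to 108 and 94.4 CPM in vein, against 4.29 and 14.0 CPM in non-vein (log2 3.47, SE 0.61; edgeR, adjusted p = 0.0262). SLC48A1 (ENSDARG00000026109), a haem transporter of endosomes and lysosomes, rose to 42.6 and 43.8 CPM in vein, against 8.86 and 9.10 CPM in non-vein (log2 2.27, SE 0.37; edgeR, adjusted p = 0.0222). The other SLC48A1 row (ENSDARG00000026907) had 6.14 and 14.3 CPM in vein and 0.924 and 8.08 CPM in non-vein. Its groups overlapped (log2 1.18; edgeR, adjusted p = 0.568). Both genes are used by cells that take up and recycle haem iron as well as by red cells. The log2 fold of SLC40A1 was 2.86 without non-vein library 1 and 4.55 without the other, and SLC48A1 lost its call without non-vein library 1 (adjusted p = 0.0624).

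Of 9 other tested rows of the red cell membrane and its skeleton 1 was higher and 0 lower in vein, with 6 above and 3 below (median log2 0.91), and 2 were called without vein library 2. DMTN, dematin, which bundles actin in the membrane skeleton, rose to 24.2 and 15.7 CPM in vein, against 2.28 and 2.69 CPM in non-vein (log2 3.0, SE 0.63; edgeR, adjusted p = 0.0386). Leaving out vein library 1 ended this call (adjusted p = 0.0956), as did leaving out either non-vein library (0.132 for library 1 and 0.0886 for library 2). The ANK1 rows, for the ankyrin that links the anion exchanger to spectrin, were chosen after their values were seen. ENSDARG00000059093 had 184 and 58 counts in vein and 0 and 2 in non-vein, which makes 149-fold, with 40.7 to 1230 as the exact 95% interval from counting alone (adjusted p = 0.0540 by edgeR). ENSDARG00000074777 had 0 counts in vein and 29 and 16 in non-vein, at least 12.2-fold lower when vein is set at 3 counts in all (edgeR, adjusted p = 0.0958). The ANK1 rows thus pointed in opposite directions, and neither passed. RHAG and kel, also chosen after their values were seen, were the other rows below in vein. RHAG had 9.08 and 6.63 CPM in vein and 17.9 and 15.2 CPM in non-vein (log2 -1.07; edgeR, adjusted p = 0.265). kel had 0 counts in vein and 52 and 32 in non-vein, at least 22.8-fold lower by the same bound (edgeR, adjusted p = 0.0754).

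Of 10 tested rows of erythropoietin signalling 1 was higher and 0 lower, and all 10 had a positive fold (median log2 0.95). Over all 15953 genes tested, 8010 had a positive fold. Most counts of the list were of the SOCS3 rows, with 15204 and 8435 of 25777 in vein library 1. Neither of them passed (edgeR, adjusted p = 0.0721 and 0.0917). Positive folds of rows that did not pass are given as a description only. The row that passed was epoa, the hormone gene itself, which rose to 15.5 and 23.5 CPM in vein, against 0.109 and 0.610 CPM in non-vein (log2 5.73, SE 1.04; edgeR, adjusted p = 0.0282). Its non-vein counts were 2 and 12, and the log2 fold was 4.99 without non-vein library 1 and 7.38 without the other. EPOR, the receptor gene through which erythropoietin acts on red cell precursors, was chosen after its values were seen. It had 86 and 2 counts in vein and 1 and 13 in non-vein, with overlapping groups (edgeR, adjusted p = 0.429).

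In the list of antioxidant and maturation genes 3 of 8 tested rows were higher and 0 lower (median log2 0.92). CREG1, a secreted glycoprotein of the lysosomal route, rose 3.67-fold, to 223 and 206 CPM in vein, against 50.7 and 66.3 CPM in non-vein (SE of log2 0.25; edgeR, adjusted p = 0.0167). BNIP3L (ENSDARG00000028067), which marks mitochondria for removal in maturing red cells of mammals, rose 5.38-fold (edgeR, adjusted p = 0.0304), and blvrb, biliverdin reductase B, rose 2.22-fold (edgeR, adjusted p = 0.0354). BNIP3L did not pass without vein library 1 (log2 1.81 in place of 2.43, adjusted p = 0.0729) or without non-vein library 1 (0.0714), and blvrb did not pass without vein library 1, vein library 2 or non-vein library 1 (0.116, 0.0609 and 0.0868), so that 1 of the list remained called without the first library of either group. The other BNIP3L row (ENSDARG00000025468) lay above in vein without passing (log2 1.41; edgeR, adjusted p = 0.0999). None of these genes is restricted to red cells.

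**Figure D4:**
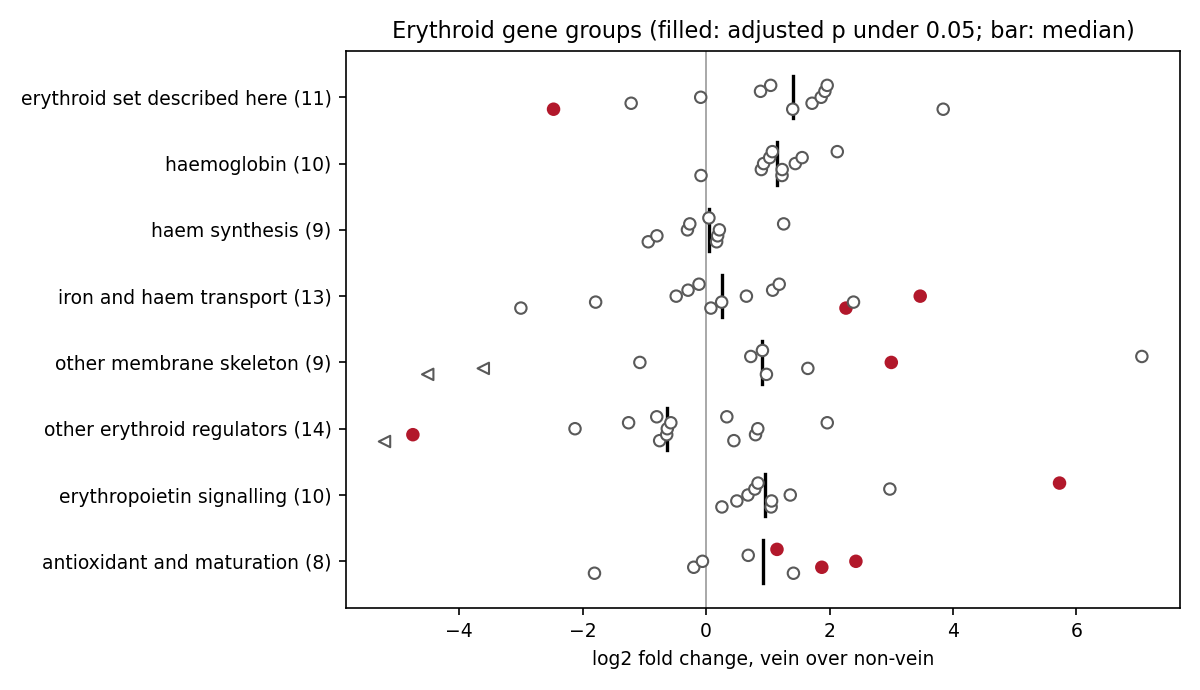
Log2 fold change of vein over non-vein for the tested rows of each gene group, with the number of rows in parentheses. Circles are rows, filled red where the adjusted p was under 0.05, triangles are rows with 0 counts in both vein libraries set at their bound against 3 counts, and bars are medians. The bar stands at 1.40 for the described set, at 1.15 for haemoglobin, at 0.0453 for haem synthesis and at -0.63 for the other regulators.

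Markers of other blood cells gave further values to set beside these. Neutrophil markers had 1 higher and 0 lower of 7 tested rows (median log2 0.10, summed share 0.213% and 0.267% in vein and 0.150% and 0.172% in non-vein). The row called was srgn, a proteoglycan gene that took most of these counts in vein, and without it the list took 0.0278% and 0.0863% in vein and 0.0921% and 0.0897% in non-vein. lyz and CSF3R, chosen after their values were seen, lay below in vein without passing (log2 -1.01 and -2.69; edgeR, adjusted p = 0.475 and 0.165). They were the 2 rows with a negative fold, against 5 with a positive fold. Of those 5, mmp13a, also chosen after its values were seen, lay above in vein without passing (log2 4.14; edgeR, adjusted p = 0.0918). Of this list 2 were called without vein library 2 and likewise when non-vein library 1 was left out. Macrophage markers had 0 of 3 tested rows called (edgeR, 1 with an unadjusted p under 0.05; DESeq2 also called 0), at 0.00712% and 0.00646% in vein and 0.00407% and 0.00399% in non-vein, with csf1ra and c1qa at 0 in all libraries. Most of these counts were of cd68, with 940 of 1116 and 917 of 1060 in vein and 646 of 734 and 559 of 752 in non-vein. The groups overlapped in the other 2 tested rows. Vein markers, lyve1b among them, had 6 higher and 0 lower of 9 (median log2 3.11). The part of these cells in the levels of the erythroid set was not tested.

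The genes whose profile over the 4 libraries was most like that of blf, the member with the highest mean CPM, were found by the root mean square difference of centred log2(CPM + 0.5). The 5 nearest rows were LMF2, ATP13A2, si:dkey-66i24.7 and the assembled loci MSTRG.19155 and MSTRG.34877, at differences of 0.0547 to 0.111. They were picked for likeness to blf in these same 4 libraries. Their lower level in vein, and its shift when a library is left out, thus follow from the choice. LMF2 had 7.51 and 19.1 CPM in vein and 106 and 54.2 CPM in non-vein (log2 -2.58; edgeR, adjusted p = 0.0484), a call that ended without vein library 1 (0.0782) or non-vein library 1 (0.142), with a log2 fold of -3.41 without vein library 2. The row si:dkey-66i24.7 had 3.72 and 8.48 CPM in vein and 40.4 and 24.6 CPM in non-vein (log2 -2.41; edgeR, adjusted p = 0.0613), and passed without vein library 2 (log2 -3.13, adjusted p = 0.0322). ATP13A2 was low, with 0.131 and 0.765 CPM in vein and 6.19 and 3.61 CPM in non-vein. MSTRG.19155 was low too, with 0 and 0.638 CPM in vein. For these rows the likeness depends on the added 0.5 CPM. Their fitted log2 folds, -3.43 for ATP13A2 and -3.63 for MSTRG.19155, were larger in size than the -2.47 of blf. A profile has only 4 libraries, and the 5 rows were not alone in this likeness. Of the 15953 genes tested, 61 outside the set and haemoglobin lay within 0.25 of blf.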

How the data were processed

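The main values were estimated counts per gene, deposited by the authors as whole numbers under column names that say FPKM. They sum to a different total in each library, and 9 to 15 genes of a library are at 0 here while the other table gives a positive value. FPKM values deposited by the authors served for levels between genes and for alternatives. RSEM, StringTie 1.3.1, HISAT2, Bowtie2 2.2.8, fastp 0.18.0, DESeq2 and the build GRCz11 appear in the submitters' processing notes, without the step each served, and the use of strand was not given in the sources used here. Of 25522 Ensembl identifiers 23608 had a name in the name table, and 2824 rows are assembled loci. Depth was 15672159 to 18862102 counts per library.

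After filterByExpr (minimum count 10) and TMM scaling, all 4 libraries were fitted in edgeR 4.0.16 under R 4.3.3 by the legacy quasi-likelihood method with group alone, and p-values were adjusted by Benjamini-Hochberg over the 15953 genes tested, at a threshold of 0.05. The SE is the log2 fold divided by the square root of F, and the 95% intervals use the fit's degrees of freedom. The fit was tested on simulated counts with known changes, 50 genes at each fold. The changed genes were drawn only above a floor of mean CPM, which klf1, epb41b and SPTB did not reach. The shares called thus do not cover these rows. The fit called 38% of the genes at a true log2 fold of 2 and likewise at -2. At 4 and at -4 it called 80%, and of the unchanged genes 0.0815%. A row that did not pass is thus not shown to be equal between the groups.

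The erythroid symbols, the gene lists and the tests were chosen with earlier results of these data known. Of 135 list symbols outside haemoglobin 120 were matched by name, where needed without the paralog letter; a name with more than 3 rows was left out, and haemoglobin rows include those named HBE1, a choice made after the data were seen. Named by rule are all rows of the set, up to 4 called genes of each list of red cell biology (the 2 most abundant where none), kdrl and lyve1b, and the 5 rows most like the most abundant gene of the set. The other genes named, among them those of the blood cell marker lists, fall outside this rule and were picked with their values known. Same-numbered libraries of the groups deviated together by r = 0.0441 across all tested genes, and nothing in the labels pairs them. This does not describe the set, where 10 of the 11 tested rows in vein and 9 in non-vein were higher in library 2. Alternatives were DESeq2 1.42.0, other scalings, no filter, limma 3.58.1 on log2(FPKM + 1) and log2(FPKM + 0.1), a replicate block, leaving out haemoglobin and ribosomal protein genes, and leaving out each library.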

Additional observations from a re-analysis of the deposited data

How the results depend on the processing

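With 2 libraries a group, the calls on single genes depended on the setting and on the libraries kept. As reported, 1826 of 15953 genes tested and 1 of 11 tested rows of the erythroid set were called. Calls numbered 4079 of 16810 genes and 3 of 10 rows of the set (blf lower, cahz and alas2 higher) with DESeq2. Without a filter they were 2845 of 21802 genes and 2 of 12 rows. With limma on log2(FPKM + 0.1) they were 484 of 13389 genes and 0 of 9 rows. When limma ran on unfiltered log2(FPKM + 1) they were 153 of 21810 genes and 0 of 12 rows. With the replicate number as a block there were 1170 of 15953 genes and 1 of 11 rows. That row was cahz (log2 1.74; edgeR, adjusted p = 0.0370), in place of blf (log2 -2.50; edgeR, adjusted p = 0.0687). The block also ended the calls of DMTN, BNIP3L, blvrb and LMF2 (adjusted p = 0.0826, 0.0585, 0.0651 and 0.0946), and with it 5 haemoglobin genes, 1 of the antioxidant and maturation list and 2 of erythropoietin signalling were called, in place of 0, 3 and 1. Leaving out each library gave 1084 to 1903 genes and 0 to 3 of the set, with 0 when the first library of either group was left out and 3 when the second non-vein library was. In all 13 alternatives the log2 fold of blf stayed between -3.10 and -1.98 and that of cahz between 1.3 and 2.23. Directions turned for klf1 with limma on log2(FPKM + 0.1) (-0.35), with the block (-0.56) and without vein library 1 (-3.56, where leaving out others gave up to 2.01), for epb41b without vein library 2 (-1.43, others up to 3.17), for SPTB without vein library 1 (0.89, others down to -5.88), and for UROD without the second library of non-vein (-0.16) or of vein (-0.10, others up to 0.63); none of these was called, and the cause was not tested. Where a library was left out, the lone library of its group was assumed to vary like those of the other group. As a percentage of summed FPKM, the erythroid set took 0.0122% and 0.0230% in vein libraries and 0.0199% and 0.0164% in non-vein libraries. klf1, alas2, nt5c2l1, epb41b and SPTB each had a library of 10 or fewer counts, where counting error is large, but their counts also differed between libraries of 1 group at like depth (klf1 had 144 and 3 in vein).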
